A study of Homo sapiens with 24 samples.

Results

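The interferon-stimulated genes described here are 42 genes that cells switch on when interferon binds its receptor. They were chosen by name: a gene spot of the array counted as a member when it carried the symbol of a listed gene or an older or newer symbol of it. Each of the 42 was on the array and passed the filter on dim probes, out of 30982 gene names in all and 22847 that were tested. The cells were U87 MG, an established human glioblastoma line, and the study asked how proton therapy (PT), alone or with the SRC inhibitor Si306, changed their gene expression. In U87 2 Gy and U87 10 Gy, RNA of cells that received 2 or 10 Gy of protons was set against RNA of untreated cells. In U87 Si306 + 2 Gy and, with the higher dose, U87 Si306 + 10 Gy, RNA of cells incubated with 10 µM Si306 for 24 h before the same doses was set against RNA of cells that received that dose without the compound. Cells were collected 24 h after irradiation in each configuration. Cells given Si306 without protons were not analysed here. On every array the treated RNA carried Cy5 and the control RNA Cy3, with no dye swap.

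The labels name 6 biological replicates for each configuration, but the scanner headers name 8 arrays, 2 for each configuration, each scanned 3 times. The scans of an array were averaged, so that n = 2 arrays. Nothing in the labels shows whether these 2 arrays carry RNA of separate cultures, so the p-values measure the spread between arrays, which may be technical. The scans labelled U87 2 Gy replicate 5 and U87 10 Gy replicate 2 lay on arrays of the other dose and were left out. The arrays of PT alone shared 1 slide and the arrays with Si306 the other, so slide and compound cannot be told apart between these pairs of configurations. An effect of the dye on a probe cannot be told apart from the treatment within a configuration. It cancels in a difference between doses only where it is alike on all arrays, which was not tested. The U87 2 Gy and U87 10 Gy arrays share the untreated control, and irradiated RNA was the treated sample on the first slide and the control on the second. Values of these configurations are therefore given side by side and their overlap is not used. Of 7 markers of U87 and glioma cells, 6 were well above background in both channels on all arrays. Of 7 leukocyte markers this held for 2 (CD14 and CD79A) and of 3 endothelial markers for 0, with PTPRC, LST1 and CD53 below the filter. CD3E and VWF reached it on all arrays in at least 1 channel.

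Interferons of type I and type III bind receptors that activate the kinases JAK1 and TYK2, and these phosphorylate STAT proteins, among them STAT2. With IRF9 these form a complex that binds the interferon-stimulated response element (ISRE) in the promoters of these genes, whereas interferon gamma acts through the gamma-activated site (GAS). The products degrade or sequester viral RNA, block viral entry and release, sense nucleic acids and feed antigen presentation. In tumour cells the same genes can be active without virus, after DNA damage among other stimuli.

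Promoter sequences were read for the ISRE and the GAS. Of the 42 members, 33 had an entry in a RefSeq promoter table (GRCh38.p14) that covers 250 bases before and 50 after the start of each gene. The ISRE core, searched as GAAA, any 2 bases and GAAA again on both strands, occurred in 21 of these 33 promoters (63.6%), against 3.57% of all 35116 promoters in the table. The GAS letters TTCNNNGAA, which read the same on both strands, occurred in 7 of the 33 (21.2%), against 7.66% of all promoters. The promoters of 4 members held both, and in 3 of them the 2 matches overlapped. The windows below hold the core upstream of the start in members that, with Si306, were among the 5 highest (IFIT1, IFIT3 and HERC5) or were lower and either changed at least 2-fold (GBP1) or differed between doses by at least 0.5 (IFI6, IFI27 and IFI44L). PLSCR1 and BST2, among the 5 lowest in U87 Si306 + 10 Gy, also had the core and are not shown. HERC6 and PSMB9 had an entry without the core, MX1 had it downstream of the start, and OASL, IFIT2 and MX2 had no entry. Each is written 5′ to 3′ on the strand of the gene with GRCh38.p14 coordinates, and capitals mark the ISRE core.
IFIT1, chr10:89392487-89392549, plus strand: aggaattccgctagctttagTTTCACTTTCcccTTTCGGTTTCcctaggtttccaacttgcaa
IFIT3, chr10:89327821-89327904, plus strand: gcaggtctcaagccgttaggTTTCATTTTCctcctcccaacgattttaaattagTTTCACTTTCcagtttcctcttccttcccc
HERC5, chr4:88456974-88457074, plus strand: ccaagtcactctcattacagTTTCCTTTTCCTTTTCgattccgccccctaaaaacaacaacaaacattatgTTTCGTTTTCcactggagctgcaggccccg
GBP1, chr1:89065306-89065355, minus strand: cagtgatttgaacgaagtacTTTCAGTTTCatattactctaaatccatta
IFI6, chr1:27672256-27672368, minus strand: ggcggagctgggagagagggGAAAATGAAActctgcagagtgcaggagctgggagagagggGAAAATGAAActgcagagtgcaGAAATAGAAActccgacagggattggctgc
IFI27, chr14:94110608-94110670, plus strand: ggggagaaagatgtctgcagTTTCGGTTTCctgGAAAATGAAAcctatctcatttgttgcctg
IFI44L, chr1:78620264-78620404, plus strand: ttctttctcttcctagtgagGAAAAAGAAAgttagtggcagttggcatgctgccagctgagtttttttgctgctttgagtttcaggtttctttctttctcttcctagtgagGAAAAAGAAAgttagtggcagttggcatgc
IFIT1, IFIT3, HERC5 and GBP1 carry the core as its reverse complement (TTTC on both sides of 2 bases), IFI6 and IFI44L as GAAA on both sides, and IFI27 in both orientations. The windows lie between -184 and -44 bases from the start of the gene. A match describes the letters of the window and is not a measured binding site. The core occurred among members on both sides of 0. Among members with an entry, 5 of 8 that were higher and 15 of 23 that were lower in U87 Si306 + 2 Gy had it. In U87 Si306 + 10 Gy the counts were 6 of 9 and 11 of 16. The GAS letters were in 0 of the 8 higher and 7 of the 23 lower members of U87 Si306 + 2 Gy. These are counts of a small list and were not tested.

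With Si306 the genes split into a group that was up regulated, led by OASL and HERC6, and a larger group that was down regulated with loess normalization, led by MX1, PSMB9 and GBP1. In U87 Si306 + 2 Gy, 29 of 42 members were lower and 10 higher (adjusted p under 0.05 in limma, loess), where 27.9% of all tested genes were lower and 38.6% higher, and with median centring 7 were lower and 27 higher, against 26% and 63.7% of all genes. In U87 Si306 + 10 Gy, 18 were lower and 12 higher, against 27.2% and 35.2% of all genes, and with median centring 2 were lower and 33 higher, against 21.5% and 59.6%. When scans were instead centred on the tested genes, 17 members were lower and 21 higher in U87 Si306 + 2 Gy, against 44.4% and 44% of all genes. A gene was counted as a DEG when its change was also at least 2-fold. In U87 Si306 + 2 Gy the 4 DEGs among the members were OASL (up) and MX1, GBP1 and PSMB9 (down), where 0.727% of all genes were DEGs. In U87 Si306 + 10 Gy they were OASL and HERC6 (both up), where 0.372% of all genes were. With median centring 11 members were DEGs at 2 Gy and 8 at 10 Gy, all up, against 18.4% and 5.07% of all genes, and MX1, GBP1 and PSMB9 were no longer among them. The median log2 ratio of the members was -0.21 at 2 Gy and -0.06 at 10 Gy after loess normalization, but 0.55 and 0.49 when each scan was only centred on its median, where the median of all tested genes stood at 0.44 and 0.26.

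The sign of many changes depended on the scaling. With median centring, 18 of the 39 members called in U87 Si306 + 2 Gy had the opposite sign, as did 13 of the 30 called in the 10 Gy configuration. Relative to the median of all tested genes these counts were 12 (IFIT5, ISG15, ISG20, EIF2AK2, IRF7, GBP2, IFITM1, IFITM2, IFITM3, BST2, SP110 and PSMB8) and 5 (EIF2AK2, IRF7, IFITM3, IFI27 and PSMB8). Every one of these had been lower. OASL, HERC6, MX1, GBP1 and PSMB9 kept their sign in both Si306 configurations under all 21 alternative settings. With median centring PSMB9 at 2 Gy (-0.13, adjusted p = 0.0509) and, at 10 Gy, GBP1 (-0.10, adjusted p = 0.0975) and MX1 (-0.08, adjusted p = 0.225) no longer passed the test. The same setting ended the call, with the sign kept, of OAS1, IRF1, MX2 and TRIM22 at 2 Gy and of PLSCR1 and TRIM21 at 10 Gy, and in PT alone of IFIH1 and MX1 at 2 Gy and ISG20, MX1 and IFITM1 at 10 Gy. The log ratio made by the scanner software turned the sign of 0 called members in every comparison. The cause of the difference between the scalings was not tested.

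**Figure D1:**
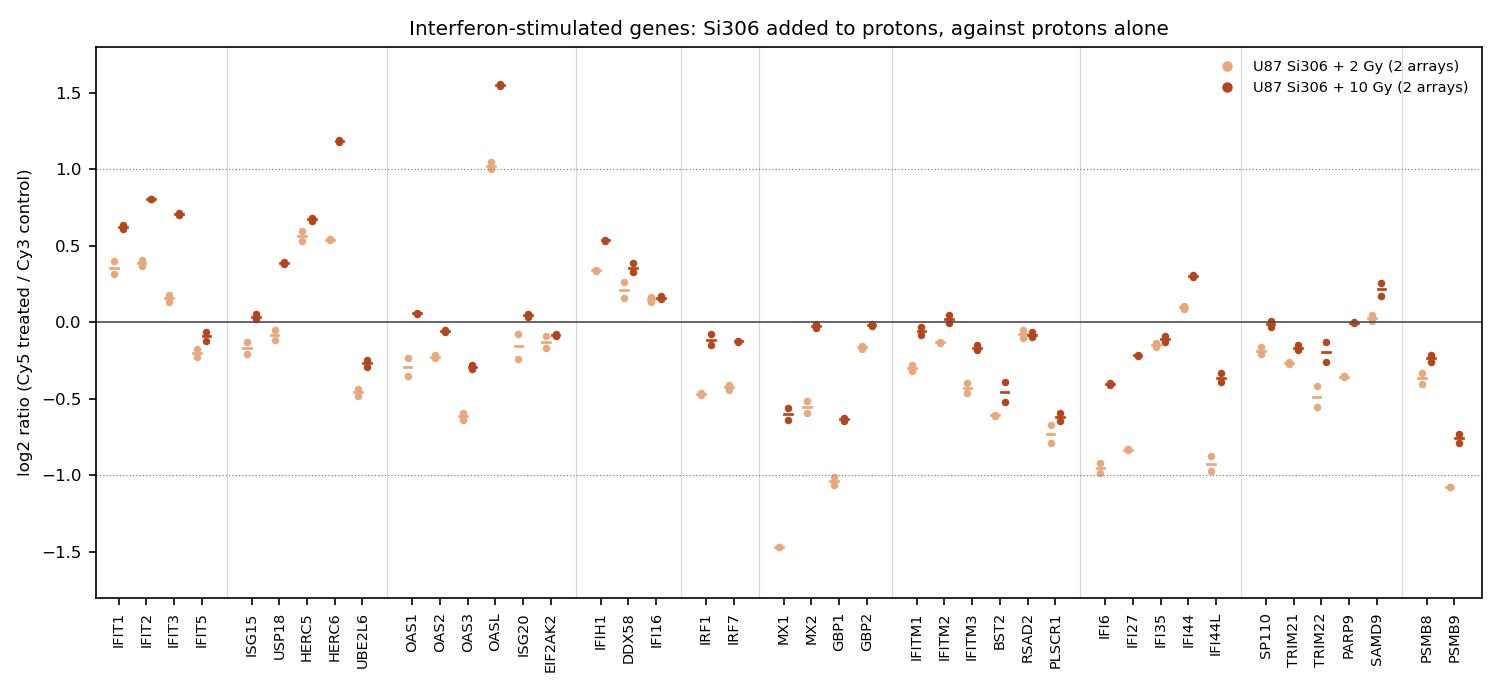
Log2 ratio (Cy5 treated over Cy3 control, loess normalized) of the 42 interferon-stimulated genes in U87 Si306 + 2 Gy (light) and U87 Si306 + 10 Gy (dark), grouped by role. Points are the 2 arrays of a configuration, short bars their mean and dotted lines the 2-fold limit; OASL stands highest at both doses (1.02 and 1.55) and MX1 lowest at 2 Gy (-1.47), while 18 of the 39 members called at 2 Gy and 13 of the 30 at 10 Gy, IFI27 among both, had the opposite sign with median centring.

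The IFIT proteins bind viral RNA and keep it from the ribosome. IFIT2 had log2 ratios of 0.37 and 0.41 on the 2 arrays of U87 Si306 + 2 Gy and of 0.81 and 0.81 in U87 Si306 + 10 Gy. Both arrays at 10 Gy lay above both at 2 Gy, and the ratio rose in both configurations, to 1.31-fold and 1.75-fold (adjusted p = 1.7e-06 and 1.78e-08). With PT alone its arrays gave 0.01 and -0.03 at 2 Gy and -0.20 and -0.25 at 10 Gy, and the lower value at 10 Gy passed the test (adjusted p = 0.000126) but turned to 0.08 with median centring. IFIT3, which binds and stabilises IFIT1, stood at 0.18 and 0.13 in U87 Si306 + 2 Gy and at 0.72 and 0.70 in U87 Si306 + 10 Gy. The groups of arrays did not overlap, and IFIT3 was 1.64-fold up regulated at 10 Gy (adjusted p = 3.79e-08) against 1.12-fold at 2 Gy (adjusted p = 0.00131). Its arrays of PT alone gave 0.11 and 0.14 at 2 Gy and 0.17 and 0.11 at 10 Gy, with means that turned to -0.11 and -0.04 when scans were centred on the tested genes. IFIT1 had 0.40 and 0.32 in U87 Si306 + 2 Gy and 0.61 and 0.64 in U87 Si306 + 10 Gy, and rose in both (adjusted p = 1.82e-05 and 3.56e-07). With PT alone it did not pass the test, with -0.04 and 0.11 at 2 Gy and -0.10 and -0.09 at 10 Gy. IFIT5 differed from the other 3: it was lower in U87 Si306 + 2 Gy (log2 -0.20, adjusted p = 0.00421), a sign that median centring turned, and at -0.09 in U87 Si306 + 10 Gy (adjusted p = 0.125). A second IFIT5 probe, nearly as bright, gave -0.03 at 2 Gy and -0.11 at 10 Gy with Si306. In PT alone the second probe gave -0.42 at 2 Gy and -0.62 at 10 Gy, where the chosen probe gave 0.13 and 0.06.

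ISG15 is a ubiquitin-like protein that is attached to other proteins by UBE2L6 and the ligase HERC5 and removed by USP18. HERC6, a close relative of HERC5, had the second strongest up regulation of the members in U87 Si306 + 10 Gy. Its arrays gave 0.54 and 0.54 in U87 Si306 + 2 Gy and 1.18 and 1.20 in U87 Si306 + 10 Gy, 1.46-fold and 2.28-fold (adjusted p = 8.77e-08 and 1.18e-09). The 2 arrays of each dose nearly coincided, so the doses were well apart. A second, dimmer probe of HERC6 gave -0.01 and 0.13. The chosen probe lies at chr4:89721215-89721274 of hg17, and in PT alone it gave 0.10 and 0.11 at 2 Gy and 0.16 and 0.17 at 10 Gy. HERC5 was up regulated with Si306, with 0.53 and 0.59 in U87 Si306 + 2 Gy and 0.66 and 0.68 in U87 Si306 + 10 Gy (adjusted p = 3.44e-07 and 1.37e-07). In PT alone it was lower, with -0.36 and -0.22 at 2 Gy and -0.16 and -0.13 at 10 Gy (adjusted p = 6.95e-05 and 0.00687), a sign that median centring turned. UBE2L6 went the other way. It was among the highest members in U87 2 Gy, with 0.50 and 0.49 (1.41-fold, adjusted p = 3.6e-07), and had 0.17 and 0.20 in U87 10 Gy. With Si306 it fell, to -0.48 and -0.43 at 2 Gy and -0.29 and -0.24 at 10 Gy (adjusted p = 4.55e-07 and 2.92e-05). These 2 pairs of arrays did not overlap, but median centring turned the sign of both means.

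USP18, which also damps signalling at the type I receptor, was at -0.05 and -0.12 in U87 Si306 + 2 Gy, short of the threshold (adjusted p = 0.0573), and at 0.38 and 0.39 in U87 Si306 + 10 Gy, where it rose 1.31-fold (adjusted p = 3.89e-06). In PT alone it gave 0.18 and 0.11 at 2 Gy and 0.40 and 0.33 at 10 Gy, and its second probe -0.14 and 0.03. ISG15 itself moved little. It was lower in U87 Si306 + 2 Gy (log2 -0.17, adjusted p = 0.00335), a sign that median centring turned, and at 0.04 in U87 Si306 + 10 Gy. In PT alone its values were 0.00 and 0.01, neither past the test.

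Among the enzymes that sense or degrade RNA, OASL stood far above its relatives. OASL lacks the synthetase activity of OAS1, OAS2 and OAS3 and is known to enhance signalling by the RNA sensor RIG-I. Its arrays gave 1.00 and 1.04 in U87 Si306 + 2 Gy and 1.55 and 1.56 in U87 Si306 + 10 Gy, so that it was up regulated 2.03-fold and 2.93-fold (SE 0.0313 on the log2 scale in each, adjusted p = 1.67e-09 and 2.04e-10). With PT alone OASL gave 0.07 and 0.10 at 2 Gy and 0.25 and 0.25 at 10 Gy. Its probe lies at chr12:119921040-119921099 of hg17. OAS3 went down instead, to -0.62 and -0.29 (adjusted p = 5.56e-08 and 1.51e-05), signs that centring scans on the median over all spots turned. OAS2 was lower in U87 Si306 + 2 Gy (-0.23, adjusted p = 0.000249) and at -0.06 in U87 Si306 + 10 Gy. OAS1 was lower in U87 Si306 + 2 Gy (-0.29, adjusted p = 3.3e-05) and at 0.06 at 10 Gy. Its probe was not well above background on the slide of PT alone, so no direction is drawn there.

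ISG20, an exonuclease of single-stranded RNA, was among the lowest members in PT alone. Its arrays gave -0.45 and -0.36 in U87 2 Gy and -0.52 and -0.43 in U87 10 Gy (adjusted p = 1.46e-05 and 3.83e-06), though median centring turned the value at 2 Gy to 0.10 and left that at 10 Gy at -0.04 (adjusted p = 0.567). With Si306 it stood at -0.08 and -0.24 at 2 Gy and 0.06 and 0.04 at 10 Gy. The kinase EIF2AK2 (PKR), which halts translation when it binds double-stranded RNA, varied little, with -0.23 and -0.21 at 2 Gy and -0.21 and -0.23 at 10 Gy of PT alone and -0.17 and -0.09 at 2 Gy and -0.08 and -0.09 at 10 Gy with Si306. It was lower in each (adjusted p from 0.000189 to 0.0433), and median centring turned its sign in all 4.

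The 3 sensors of nucleic acids were higher in both Si306 configurations, where 38.6% of all genes were higher at 2 Gy and 35.2% at 10 Gy. IFIH1 (MDA5) detects long double-stranded RNA and DDX58 (RIG-I) the triphosphate ends of short viral RNA. IFIH1 rose by a log2 of 0.34 at 2 Gy and 0.54 at 10 Gy (adjusted p = 2.9e-06 and 1.45e-07), and DDX58 by 0.21 and 0.36 (adjusted p = 0.00501 and 0.000152). DDX58 had 0.07 and 0.32 on the arrays of U87 2 Gy, the largest difference between the 2 arrays of a configuration among the members. IFI16, a sensor of DNA, gave 0.13 and 0.17 in U87 Si306 + 2 Gy and 0.15 and 0.17 in U87 Si306 + 10 Gy, with overlapping arrays (adjusted p = 0.00218 and 0.00152). In PT alone it was lower, with -0.49 and -0.41 at 2 Gy and -0.33 and -0.32 at 10 Gy (adjusted p = 9.63e-07 and 9.18e-06). Median centring turned these 2 values to 0.21 and 0.23, and a second IFI16 probe gave -0.41 and -0.35 with loess.

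Both transcription factors of the list were lower with Si306 after loess normalization, and median centring turned the sign of IRF7 at both doses and of IRF1 at 10 Gy. IRF1 activates genes downstream of interferon gamma, and IRF7 is the main inducer of interferon alpha genes. IRF1 fell by 0.47 on the log2 scale at 2 Gy and by 0.11 at 10 Gy (adjusted p = 1.2e-06 and 0.0218), and was higher in PT alone (0.24 and 0.22, adjusted p = 0.000278 and 0.000426). IRF7 gave -0.41 and -0.44 in U87 Si306 + 2 Gy and -0.13 and -0.12 in U87 Si306 + 10 Gy, -0.38 and -0.33 in U87 2 Gy and -0.44 and -0.39 in U87 10 Gy. It passed the test as lower in all 4 (adjusted p from 7.53e-07 to 0.00603), but its second, dimmer probe was between 0.01 and 0.14 in all 4, and median centring turned its sign as well.

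The GTPases of the list held the strongest down regulation. MX1, a dynamin-like GTPase that blocks the replication of influenza and other viruses, gave -1.47 and -1.47 on the 2 arrays of U87 Si306 + 2 Gy and -0.64 and -0.56 on those of U87 Si306 + 10 Gy. Both arrays at 2 Gy lay below both at 10 Gy. MX1 was 2.76-fold lower at 2 Gy (SE 0.038, adjusted p = 5.47e-10) and 1.51-fold lower at 10 Gy (adjusted p = 2.98e-07). With median centring MX1 stood at -0.73 at 2 Gy, under 2-fold, and its call at 10 Gy was lost. In PT alone it gave 0.10 and 0.15 at 2 Gy and 0.10 and 0.22 at 10 Gy, and this rise (adjusted p = 0.014 and 0.00347) turned to -0.26 and -0.13 when scans were centred on the tested genes. Its probe lies at chr21:41752884-41752943 of hg17. GBP1, a guanylate-binding protein that attacks intracellular pathogens and is induced most by interferon gamma, gave -1.06 and -1.01 in U87 Si306 + 2 Gy and -0.64 and -0.62 in U87 Si306 + 10 Gy. It was 2.05-fold and 1.55-fold lower (adjusted p = 2.7e-09 and 1.03e-07), and a second probe gave -0.97 and -0.60. With median centring GBP1 stood at -0.25 at 2 Gy, and its call at 10 Gy was lost. The GBP1 probe lies at chr1:89230712-89230771 of hg17. In PT alone GBP1 gave -0.19 and -0.13 at 2 Gy and -0.31 and -0.37 at 10 Gy, lower in both with loess (adjusted p = 0.00217 and 8.64e-06) and turned to 0.25 and 0.03 by median centring.

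MX2, a restriction factor of HIV, gave -0.59 and -0.52 in U87 Si306 + 2 Gy and -0.04 and -0.01 in U87 Si306 + 10 Gy. It fell at 2 Gy (adjusted p = 1.28e-07) and did not pass the test at 10 Gy (adjusted p = 0.528), and its dimmer second probe gave 0.08 and -0.08. With median centring MX2 stood at -0.11 at 2 Gy (adjusted p = 0.0662) and at 0.34 at 10 Gy (adjusted p = 1.73e-06). In PT alone the MX2 arrays gave 0.20 and 0.18 at 2 Gy and 0.08 and 0.07 at 10 Gy. GBP2, the least changed of these GTPases, was at -0.16 in U87 Si306 + 2 Gy (adjusted p = 0.00141), a sign that median centring turned, and at -0.02 in U87 Si306 + 10 Gy.

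Of the membrane proteins that restrict viral entry, budding or replication, 5 of 6 were lower in U87 Si306 + 2 Gy and 3 of 6 in U87 Si306 + 10 Gy with loess, and median centring turned the sign of all 5 at 2 Gy and of IFITM3 and BST2 at 10 Gy. The shares of all genes that were lower are those above, 27.9% at 2 Gy and 27.2% at 10 Gy. PLSCR1, a phospholipid scramblase, gave -0.79 and -0.67 at 2 Gy and -0.65 and -0.60 at 10 Gy in these configurations and was 1.66-fold and 1.54-fold lower (adjusted p = 7.74e-08 and 3.18e-07). With median centring the value at 2 Gy had the opposite sign and that at 10 Gy was -0.09 (adjusted p = 0.152). In PT alone its arrays gave -0.04 and -0.02 at 2 Gy and -0.08 and 0.03 at 10 Gy, short of the threshold. BST2 (tetherin), which holds budding virions at the cell surface, gave -0.61 and -0.61 at 2 Gy and -0.39 and -0.52 at 10 Gy with Si306 (adjusted p = 8.11e-07 and 8.97e-06), and median centring turned the value at 10 Gy to 0.24. BST2 in PT alone gave -0.01 and 0.10 at 2 Gy and -0.10 and 0.06 at 10 Gy, arrays of opposite sign. The IFITM proteins, which block fusion of virus and cell membranes, were lower in U87 Si306 + 2 Gy at -0.30 (IFITM1), -0.13 (IFITM2) and -0.43 (IFITM3), each with a sign that median centring turned. In U87 Si306 + 10 Gy their values were -0.06, 0.02 and -0.16, of which IFITM3 passed the test (adjusted p = 0.00105). IFITM2 was among the highest members in U87 10 Gy, with 0.32 and 0.33 (adjusted p = 7.38e-06), and gave 0.20 and 0.25 in U87 2 Gy. RSAD2 (viperin) was not well above background in the control channel of any array, so that its ratios have no direction.

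IFI6, IFI27 and IFI44L were strongly lower at 2 Gy and less so at 10 Gy with loess, and median centring turned the sign of all 3 at 10 Gy. IFI6, an inhibitor of apoptosis, gave -0.99 and -0.92 in U87 Si306 + 2 Gy and -0.41 and -0.39 in U87 Si306 + 10 Gy, 1.94-fold and 1.32-fold lower (adjusted p = 7.44e-09 and 3.75e-06), with the value at 10 Gy turned to 0.06 by median centring. In PT alone IFI6 was the highest member in U87 2 Gy, with 0.53 and 0.54 (1.45-fold, adjusted p = 5.27e-07), and gave 0.42 and 0.31 in U87 10 Gy (adjusted p = 7.22e-06). IFI27, a small mitochondrial protein, gave -0.83 and -0.84 at 2 Gy and -0.22 and -0.21 at 10 Gy with Si306 and was 1.78-fold and 1.16-fold lower (adjusted p = 1.24e-08 and 0.000236). Its second probe gave -0.75 and -0.24, while median centring turned the values to 0.39 and 0.60. In PT alone its arrays gave -0.09 and -0.06 at 2 Gy and -0.17 and -0.07 at 10 Gy. IFI44L gave -0.97 and -0.88 at 2 Gy and -0.39 and -0.33 at 10 Gy with Si306 (adjusted p = 6.85e-09 and 5.49e-06), the latter turned to 0.13 by median centring, and its arrays of PT alone gave 0.02 and 0.03 in U87 2 Gy and 0.17 and 0.16 in U87 10 Gy.

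IFI44, the neighbour and paralogue of IFI44L on chromosome 1, had the opposite sign. It was higher by 0.10 in U87 Si306 + 2 Gy and by 0.30 in U87 Si306 + 10 Gy (adjusted p = 0.0197 and 1.31e-05), where IFI44L was lower with loess. IFI35, a modulator of RIG-I signalling, gave -0.13 and -0.16 at 2 Gy and -0.09 and -0.13 at 10 Gy with Si306 (adjusted p = 0.00222 and 0.0151), signs that centring scans on the median over all spots turned. In PT alone IFI35 was higher, with 0.26 and 0.28 in U87 2 Gy and 0.20 and 0.13 in U87 10 Gy (adjusted p = 3.94e-05 and 0.00111).

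TRIM22, a ubiquitin ligase with antiviral activity, had the highest ratio of any member in PT alone. It gave 0.18 and 0.27 in U87 2 Gy and 0.74 and 0.77 in U87 10 Gy, and both arrays at 10 Gy lay far above both at 2 Gy. It was 1.69-fold up regulated at 10 Gy (SE 0.0438 on the log2 scale, adjusted p = 1.28e-07) and 1.17-fold at 2 Gy (adjusted p = 0.00126), and its second probe gave 0.45 and 0.04. With Si306 it was lower, with -0.55 and -0.42 in U87 Si306 + 2 Gy and -0.26 and -0.13 in U87 Si306 + 10 Gy (adjusted p = 2.99e-06 and 0.00262). Median centring left the value at 2 Gy at -0.01 (adjusted p = 0.871) and turned that at 10 Gy to 0.16. TRIM21, a cytosolic antibody receptor and ubiquitin ligase, was lower with Si306 as well (-0.26 and -0.17, adjusted p = 6.69e-05 and 0.00187). SP110, a nuclear body protein, was at -0.19 in U87 Si306 + 2 Gy (adjusted p = 0.00298, a sign turned by median centring) and -0.01 in U87 Si306 + 10 Gy. PARP9, an ADP-ribosyltransferase of the interferon response, was at -0.36 (adjusted p = 1e-05, a sign turned by median centring) and 0.00. SAMD9, a restriction factor of poxviruses, gave 0.03 in U87 Si306 + 2 Gy and rose by 0.22 in U87 Si306 + 10 Gy (adjusted p = 0.00023).

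PSMB8 and PSMB9 are the interferon-induced subunits that turn the proteasome into the immunoproteasome, which cuts peptides for HLA class I. PSMB9 gave -1.08 and -1.08 in U87 Si306 + 2 Gy and -0.79 and -0.73 in U87 Si306 + 10 Gy, with no overlap of the doses, and was 2.11-fold and 1.69-fold lower (adjusted p = 9.49e-09 and 1.27e-07). With median centring PSMB9 stood at -0.13 at 2 Gy, short of the threshold, and at -0.14 at 10 Gy (adjusted p = 0.0462), and its difference between the doses turned from positive to -0.01. Its probe lies at chr6:32931896-32931955 of hg17. In PT alone its 2 arrays differed at 2 Gy (0.17 and 0.35, adjusted p = 0.000358) and gave 0.02 and 0.03 at 10 Gy. PSMB8 gave -0.40 and -0.33 at 2 Gy and -0.21 and -0.26 at 10 Gy with Si306 (adjusted p = 2.81e-06 and 9.42e-05), signs that median centring turned. In PT alone it was higher, with 0.32 and 0.30 in U87 2 Gy and 0.20 and 0.20 in U87 10 Gy (adjusted p = 1.34e-05 and 0.000353).

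**Figure D2:**
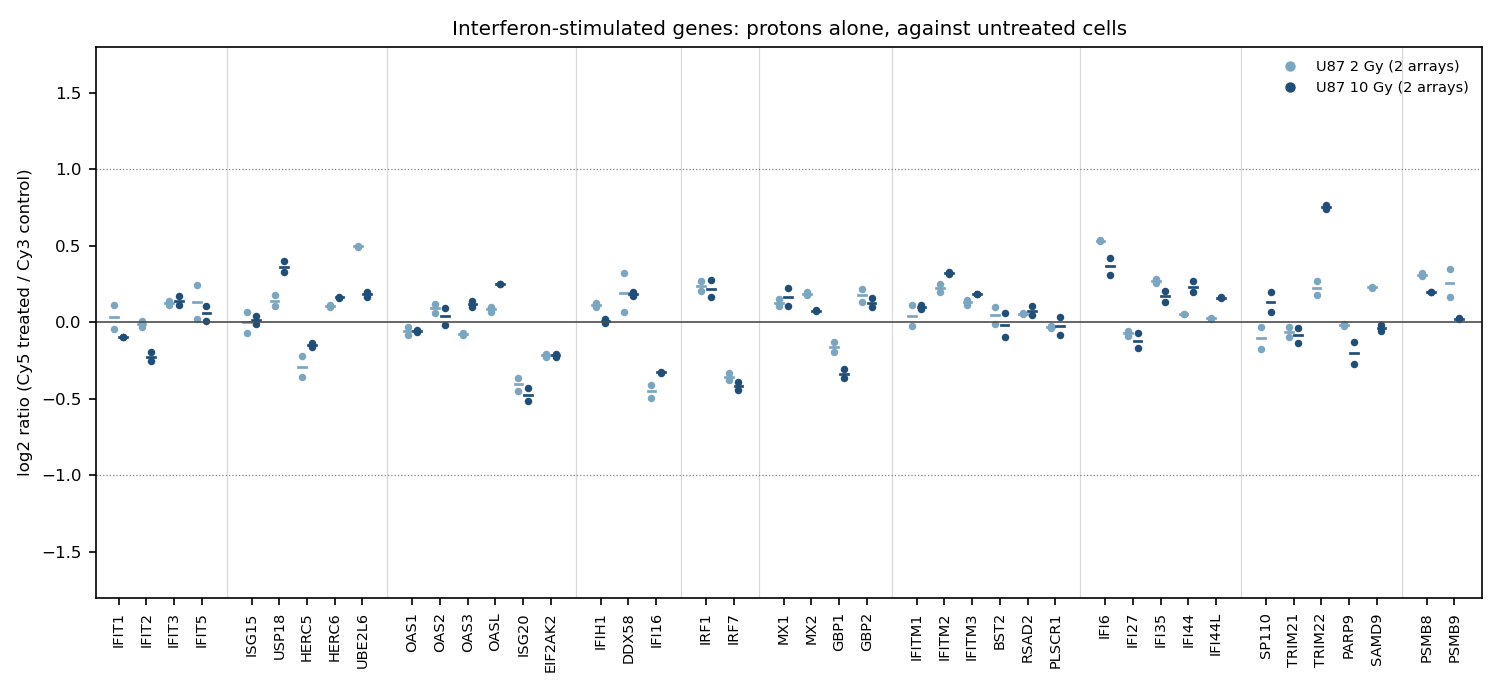
Log2 ratio (Cy5 treated over Cy3 untreated, loess normalized) of the same 42 genes in U87 2 Gy (light) and U87 10 Gy (dark), on the axis range used for the Si306 arrays. Points are the 2 arrays, bars their mean and dotted lines the 2-fold limit, which no member reached; TRIM22 at 10 Gy stands highest (0.75), and the members below 0 include several, such as IFI16 and ISG20 at 2 Gy, whose sign turned with median centring.

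For PT alone, 20 of 42 members were higher and 6 lower in U87 2 Gy, where 32.2% of all tested genes were higher and 25% lower, and with median centring 31 were higher and 4 lower, against 59.6% and 25.8%. In U87 10 Gy, 20 were higher and 9 lower, against 31.2% and 26.3% of all genes, and with median centring 28 were higher and 3 lower, against 57.7% and 24.2%. No member reached the 2-fold change of a DEG in either with loess, whatever its p (with median centring UBE2L6 did at 2 Gy and TRIM22 at 10 Gy), where 0.727% and 0.967% of all genes were DEGs. The median of the members was 0.07 at both doses, and 0.42 and 0.34 with median centring, where the median of all tested genes was 0.27 and 0.23. The 6 members lower in U87 2 Gy were HERC5, ISG20, EIF2AK2, IFI16, IRF7 and GBP1, and median centring turned the sign of all 6. The 5 highest were IFI6, UBE2L6, PSMB8, IFI35 and PSMB9 in U87 2 Gy, and TRIM22, IFI6, USP18, IFITM2 and OASL in U87 10 Gy.

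The difference between the proton doses was small for most members. At 10 Gy against 2 Gy, 6 members were higher and 7 lower, against 9.92% and 11.2% of all tested genes, and the median difference was -0.01, as over all genes. The higher members were TRIM22, SP110, USP18, OAS3, IFI44 and OASL, and the lower ones UBE2L6, SAMD9, PSMB9, IFIT2, PARP9, GBP1 and IFI6. TRIM22 differed by 0.53 (SE 0.062, adjusted p = 0.000261), the 1 member with a difference of at least 0.5, a size that 1.2% of all genes reached in either direction and 0.705% as higher. The largest fall was that of UBE2L6, by 0.31 (adjusted p = 0.000948). With the 2 discordant scans used under their label, 0 genes of any kind passed limma's adjusted test for this difference (1 member was higher and 0 lower at an unadjusted p under 0.05), and TRIM22 stood at 0.36 (adjusted p = 0.996). With any 1 array left out, the median difference of the members lay between -0.017 and -0.00043. TRIM22 stood at 0.54 without the first U87 10 Gy array and at 0.52 without the second. It stood at 0.49 without the first U87 2 Gy array and at 0.58 without the second.

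With loess normalization the effect of Si306 differed between the doses in 1 direction, which held for fewer members with median centring. The ratio of Si306 with protons to protons alone was higher at 10 Gy than at 2 Gy for 30 of 42 members (adjusted p under 0.05) and lower for 0, where 10.2% of all tested genes were higher and 12.6% lower. At an unadjusted p under 0.05 in limma, 33 members were higher and 0 lower, against 16.2% and 20% of all genes. The median difference of the members was 0.22 with loess (-0.01 over all genes) and -0.03 with median centring (-0.13 over all genes). By the arrays themselves, both at 10 Gy lay above both at 2 Gy for 39 members and below for 0, against 29.4% and 35.3% of all genes, and EIF2AK2, IFI16 and RSAD2 overlapped. With median centring 12 members were higher and 6 lower by the adjusted test, against 17.4% and 42.8% of all genes. Of the 30, 12 then had the opposite sign, and 7 relative to the median of all genes (ISG15, ISG20, IFITM1, IFITM2, IFITM3, IFI44 and SAMD9). The scanner software's ratio kept the sign of all 30. With the discordant scans under their label 16 members were higher and 0 lower, against 3.69% and 4.56% of all genes. Without the second array of U87 Si306 + 10 Gy the median difference of the members was 0.22, against -0.01 over all genes.

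Members with a higher ratio at 10 Gy lay on both sides of 0 with loess normalization, and median centring moved several of the lower ones above 0. Of the 30, 12 were lower at both doses and less so at 10 Gy: UBE2L6, OAS3, IRF1, IRF7, MX1, GBP1, IFITM3, IFI6, IFI27, IFI44L, TRIM22 and PSMB9. With median centring none of these 12 stayed called as lower at both doses. MX1 and GBP1 lost the call at 10 Gy and PSMB9 at 2 Gy, and the others turned sign at 10 Gy. Of the 30, another 9 were lower at 2 Gy and did not pass the test at 10 Gy with loess: ISG15, OAS1, OAS2, ISG20, MX2, GBP2, IFITM1, IFITM2 and PARP9. A further 7 were higher at both doses and more so at 10 Gy: IFIT1, IFIT2, IFIT3, HERC6, OASL, IFIH1 and IFI44. USP18 and SAMD9 passed as higher at 10 Gy alone.

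Differences of at least 0.5 were found for 8 members, all positive, against 0.605% of all genes as higher and 1.39% in either direction. With median centring 1 of them, MX1 (0.65), reached this size, against 9.52% of all genes in either direction. MX1 led with 0.87 (SE 0.0538, adjusted p = 3.08e-06). HERC6 followed with 0.65 (SE 0.0426, adjusted p = 4.96e-06) and IFI27 with 0.62 (SE 0.0483, adjusted p = 1.77e-05). With loess HERC6 was up regulated and MX1 and IFI27 were down regulated, and median centring turned IFI27 to positive values at both doses. IFI44L differed by 0.56, IFI6 by 0.55, IFIT3 by 0.55, MX2 by 0.53 and OASL by 0.53, with adjusted p from 2.64e-05 to 5.95e-05. The second probe of HERC6 gave 0.14, that of MX2 -0.16 and that of IFI27 0.51. The 8 positive differences kept their sign under all 21 alternative settings, and that of OASL no longer passed with median centring (0.18, adjusted p = 0.0547).

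**Figure D3:**
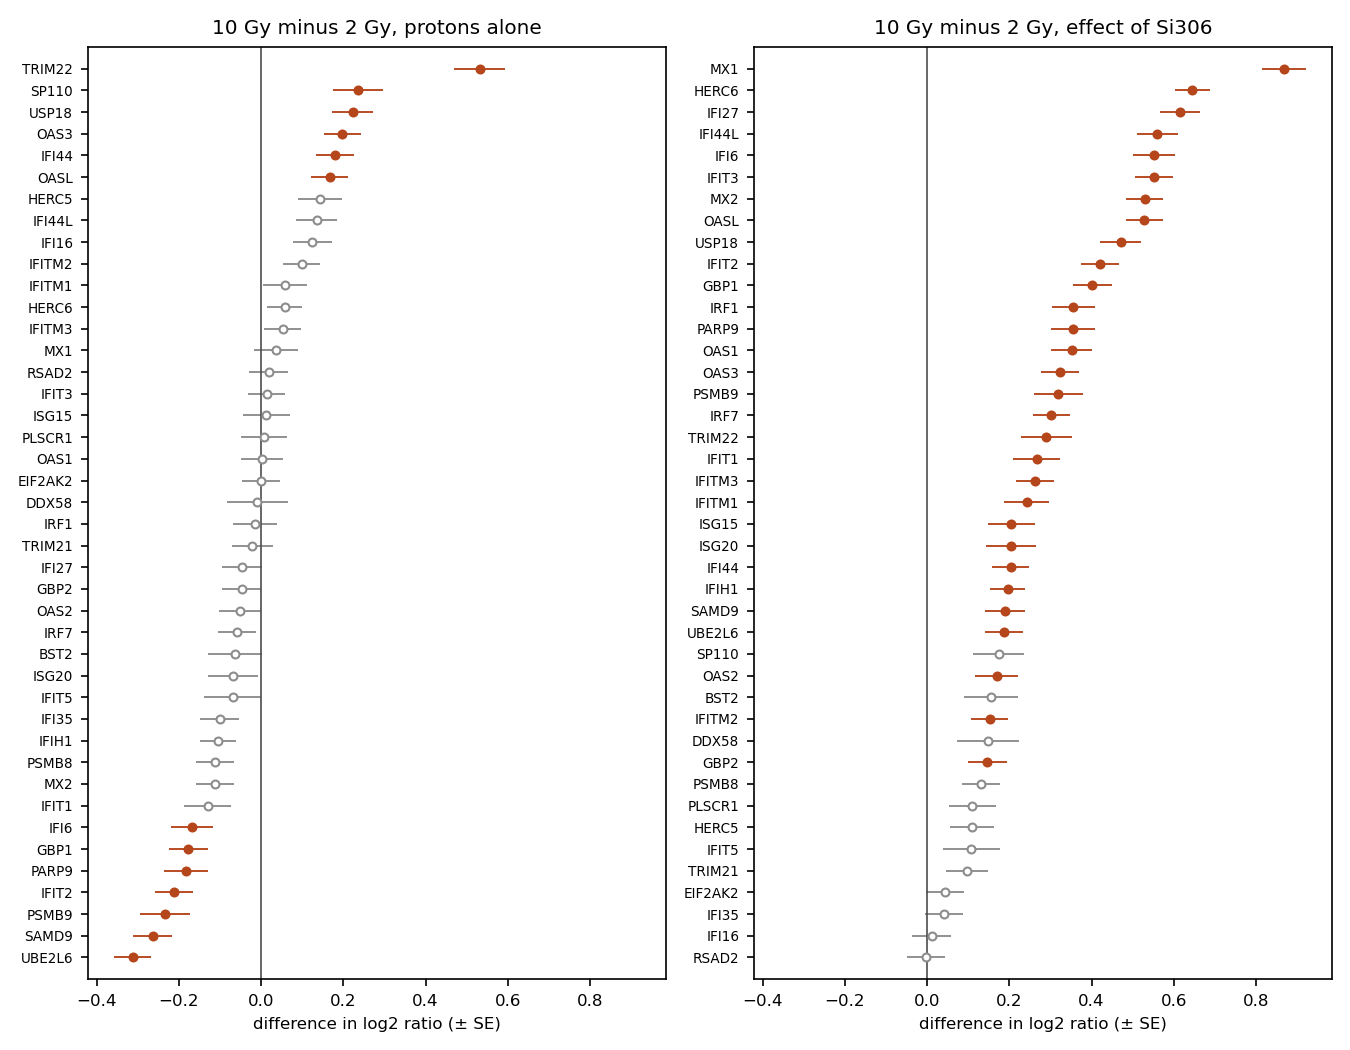
Difference in log2 ratio between 10 Gy and 2 Gy for the 42 genes, for protons alone (left) and for the effect of Si306 (right), loess normalized. Points are differences of configuration means with bars of 1 SE and filled points have an adjusted p under 0.05; on the left 6 filled points lie above 0 and 7 below, and on the right 30 lie above 0 and none below, while with median centring 12 of these 30 had a difference below 0.

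The genes upstream of the members were read in the same fit. Of 8 interferon ligands listed, 6 were on the array, and IFNB1, IFNA2, IFNG and IFNK were below the filter. IFNL2 was well above background on all arrays, with log2 ratios of 0.07 at 2 Gy and 0.04 at 10 Gy of PT alone, and with Si306 of 0.20 at 2 Gy and 0.08 at 10 Gy (adjusted p = 0.000301 and 0.0499). Both Si306 values had the opposite sign when scans were centred on the tested genes. IFNL1 was well above background in the Cy5 channel of 1 array of U87 2 Gy and both of U87 10 Gy and on no other. STAT2, a transducer of type I and type III signals, had log2 ratios of 0.09 at 2 Gy and 0.13 at 10 Gy of PT alone and -0.06 at 2 Gy and 0.02 at 10 Gy with Si306, of which the value in U87 10 Gy passed the test (adjusted p = 0.0158). When scans were centred on the tested genes STAT2 stood at -0.28 in U87 Si306 + 10 Gy (adjusted p = 0.00131). In U87 Si306 + 2 Gy STAT2 ran from -0.59 to 0.02 over 21 alternative settings and passed the test as lower in 3 of them. IRF9, the DNA-binding partner of the STAT proteins, had 0.15, 0.07, -0.63 and -0.07 in the same order. It was lower in U87 Si306 + 2 Gy (adjusted p = 1.08e-07, turned to 0.22 by median centring), did not pass in U87 Si306 + 10 Gy (0.50 with median centring, adjusted p = 1.47e-09), and its Si306 ratio differed between the doses by 0.56 (adjusted p = 5.12e-05).

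Of 5 receptor chains tested, 4 were higher and 1 lower in U87 Si306 + 2 Gy, where 38.6% of all genes were higher and 27.9% lower, shares that stand beside the next 2 lists as well. The highest were IFNLR1, the specific chain of the interferon lambda receptor, with 0.59 and 0.52 in the Si306 configurations (adjusted p = 5.84e-07 and 2.03e-06) and a probe not well above background in U87 10 Gy, and IL10RB, its partner chain, with 0.55 in U87 10 Gy (adjusted p = 2.25e-07). Among 10 tested genes of nucleic acid sensing and interferon induction, 0 were higher and 4 lower in U87 Si306 + 2 Gy, the lowest being the DNA sensor AIM2 (-0.53, adjusted p = 2.65e-07), and median centring turned the sign of all 4. Among 6 negative regulators, 3 were higher and 3 lower in U87 Si306 + 2 Gy. IRF2, which competes with IRF1 for the same DNA element, was lower in U87 10 Gy (-0.57, adjusted p = 1.66e-07).

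A list of 21 further interferon-stimulated genes, of which 18 were tested, was read beside the 42. In U87 Si306 + 2 Gy, 11 were lower and 3 higher, against 27.9% and 38.6% of all genes. In U87 Si306 + 10 Gy 8 were lower and 6 higher, against 27.2% and 35.2%. Median centring turned the sign of 6 of the 14 called at 2 Gy (NMI, TRIM14, RTP4, ADAR, TAP1 and IFI30) and of 5 of the 14 at 10 Gy (SAMD9L, NMI, ADAR, TAP1 and IFI30). Between the doses 12 were higher at 10 Gy and 0 lower (14 and 0 at an unadjusted p under 0.05), against 10.2% and 12.6% of all genes (16.2% and 20% unadjusted), with a median difference of 0.20 with loess and 0.00 with median centring, which turned the sign of DDX60, PARP14 and TAP1. The lowest was XAF1, a gene that promotes apoptosis, at -1.18 and -0.61 (adjusted p = 1.51e-09 and 1.8e-07). SAMD9L, the paralogue of SAMD9, was at -0.83 in U87 Si306 + 2 Gy, the RNA editing enzyme ADAR at -0.64, LGALS3BP at -0.61, the peptide transporter TAP1 at -0.55 and the thiol reductase IFI30 at -0.50 (adjusted p from 1.5e-08 to 1.17e-06). With median centring SAMD9L and LGALS3BP no longer passed at 2 Gy. In PT alone LY6E, a membrane protein, was higher by 0.56 in U87 2 Gy and 0.64 in U87 10 Gy (adjusted p = 1.12e-07 and 3.4e-08), and LGALS3BP by 0.55 in U87 10 Gy (adjusted p = 9.27e-07). These lists were set with results of the same arrays known and do not stand as independent support.

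**Figure D4:**
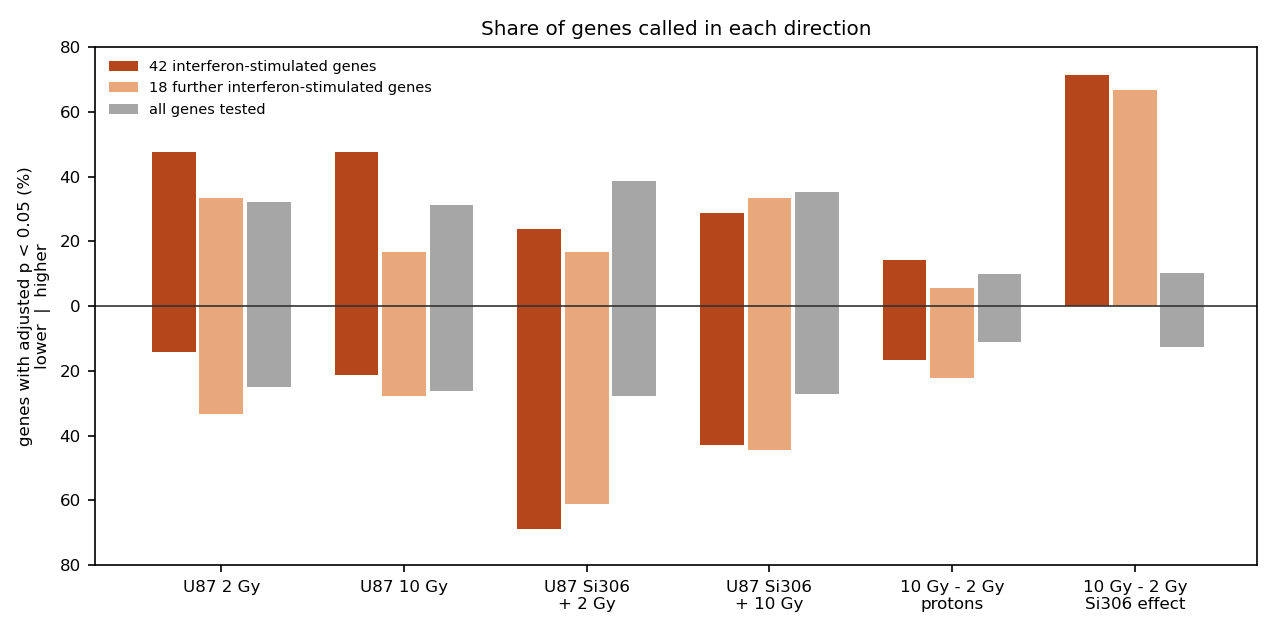
Share of genes with an adjusted p under 0.05 (%), higher above the line and lower below it, in the 4 configurations and the 2 dose differences, for the 42 interferon-stimulated genes, the 18 further ones and all genes tested (loess normalized). The widest gap is that of the Si306 effect between doses, where 71.4% of the 42 genes were higher and 0% lower, against 10.2% and 12.6% of all genes; with median centring 12 of the 42 were higher and 6 lower, against 17.4% and 42.8%.

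The spread behind these values was small where it could be seen. The 2 arrays of a configuration differed by a median of 0.04 on the log2 scale over the members and by at most 0.26, and the median SE was 0.0344 for a configuration and 0.0487 for a difference between doses. In 12 of 168 pairs of member and configuration the 2 arrays had opposite signs. Of the members, 40 were well above background in both channels on all arrays, and the exceptions were OAS1 and RSAD2. Member probes had a GC content of 31.7% to 55%. For the 13 members with more than 1 kept probe, 39 of 52 ratios passed the test, and in 10 of these another probe had the opposite sign (IFIT5, IRF7, SAMD9, USP18, HERC6 and MX2).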

How the data were processed

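Gene expression of U87 cells was measured on Agilent whole human genome arrays with 2 colours. Per the file headers, the deposited scanner tables were made with Agilent Feature Extraction and hold mean signals and median local backgrounds as linear intensity, and the log10 ratio of red (Cy5) over green (Cy3) after the software's own background and dye correction. The value table deposited by the authors holds the same log10 ratio. No columns of the authors' own comparisons were used.

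The 24 deposited scans came from 8 arrays, 2 per configuration, where 24 separate samples had been planned for, and 22 scans were used. Outlier spots (2.98% to 5.73% of spots per scan) were left out and saturated spots (at most 0.0115%) kept. Signals were corrected with normexp (offset 50) and normalized by loess within each scan in R 4.3.3 with limma 3.58.1, the packages data.table (version 1.17.8) and statmod (version 1.5.0). Log2 ratios of spots were averaged per probe, then over the scans of an array. A probe was kept (30316 of 41000) when Cy5 or Cy3 was well above background on at least 2/3 of a configuration's arrays, and the brightest probe stood for its gene. One limma fit over the 8 arrays (4 residual and 6.58 prior degrees of freedom, prior SD 0.0537) gave the 4 configurations against 0 and both dose differences, with Benjamini-Hochberg adjustment over all genes. A missing value in at least 1 comparison occurred for 44 genes. The number of arrays limits the precision. The scripts were tested on simulated data.

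The members and the gene lists were chosen with earlier results of these data known. Values on each array are given for members that were DEGs, that differed between doses by at least 0.5 (adjusted p under 0.05), or that were among the 5 highest or lowest of a configuration. Genes of the other pathway lists, not the cell markers, are named where they passed the test with a log2 change of at least 0.5 in a configuration, along with STAT2, IRF9 and the ligands. One further gene was left out of the lists and is not reported here. The further genes named for a turned sign, the marker genes and the transcripts in counts of 5 or fewer were named after their values were seen. Alternatives covered background correction, centring, the scanner's ratio, the filter, the choice of probe, probe GC content and discordant scans. They also covered each scan as a sample, with the array or the replicate number as a block, each slide alone and each array left out. Promoter sequences are from RefSeq (GRCh38.p14), and probe positions are those of the array design (hg17).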

Additional observations from a re-analysis of the deposited data

Results flagged for a closer look

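The change of 9 members differed between the doses by the test of the difference itself, with an adjusted p under 0.05 in limma and a size of at least 0.5 on the log2 scale. With protons alone this was TRIM22, higher by 0.53 at 10 Gy than at 2 Gy. For the effect of Si306 it was MX1 by 0.87, HERC6 by 0.65, IFI27 by 0.62, IFI44L by 0.56, IFI6 by 0.55, IFIT3 by 0.55, MX2 by 0.53 and OASL by 0.53, each with a higher ratio at 10 Gy on both arrays. Of all genes, 1.2% reached this size between the proton doses and 1.39% between the Si306 ratios. With the discordant scans under their label the TRIM22 difference did not pass in limma (0.36, adjusted p = 0.996). With median centring MX1 alone of the 9 reached 0.5. The second probe of HERC6 gave a Si306 difference of 0.14 and that of MX2 -0.16.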

How the results depend on the processing

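The counts of members recomputed under 21 alternatives stayed within 1.5 times of their value in 334 of 378 cases, and the medians of the members within the spread of the arrays in 91 of 126. Of 2079 values of single genes, 1922 kept direction and call, 85 lost the call, 43 gained it and 25 reversed. A further 4 values (IRF9 under both centrings, MX2 and STAT2, all in U87 Si306 + 10 Gy) had not been called and passed the test with the opposite sign. The 25 reversals and these 4 changes came with centring in place of loess. The cause was not tested.

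With each scan centred on its median, 31 members were higher in U87 2 Gy with 1 DEG, and in U87 10 Gy 3 were lower with 1 DEG. In U87 Si306 + 2 Gy 27 were higher and 7 lower with 11 DEGs, and in U87 Si306 + 10 Gy 33 were higher and 2 lower with 8 DEGs. Between the proton doses 2 were higher, 4 lower and 0 reached 0.5, and between the Si306 ratios 12 were higher, 6 lower and 1 reached 0.5. The sign reversed in U87 2 Gy for EIF2AK2 (0.33), GBP1 (0.25), HERC5 (0.12), IFI16 (0.21), IRF7 (0.27) and ISG20 (0.10), and in U87 10 Gy for GBP1 (0.031), IFI16 (0.23), IFIT2 (0.080) and IRF7 (0.10). It reversed in U87 Si306 + 2 Gy for IFI27 (0.39) and IRF9 (0.22), in U87 Si306 + 10 Gy for BST2 (0.24), IFI27 (0.60), IFI44L (0.13), IFI6 (0.058) and TRIM22 (0.16), and between the Si306 ratios for PSMB9 (-0.0059).

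With scans centred on the tested genes, a setting chosen after seeing the data, 13 members were lower in U87 2 Gy (42% of all genes) and 14 in U87 10 Gy (40.5%), where 1 was a DEG. In U87 Si306 + 2 Gy 21 were higher and 17 lower (44% and 44.4% of all genes), and in U87 Si306 + 10 Gy 24 were higher (41.3%) with 4 DEGs. Between the proton doses 2 were higher, 4 lower and 0 reached 0.5, and between the Si306 ratios 1 was lower. The sign reversed in U87 2 Gy for EIF2AK2 (0.060), IFIT3 (-0.11) and MX1 (-0.26), in U87 10 Gy for IFI16 (0.000966), IFIT3 (-0.038) and MX1 (-0.13), and in U87 Si306 + 10 Gy for IFI27 (0.34).

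Between the proton doses 4 members were lower without the filter, against 6.29% of all genes, and 4 within each slide alone, against 8.73%. With the discordant scans under their label 0 were higher, 0 lower and 0 reached 0.5 in limma (1 and 0 at an unadjusted p under 0.05), as over all genes by the adjusted test. Between the Si306 ratios 16 were then higher, against 3.69% of all genes. With the mean of a gene's probes 1 member, OASL, was a DEG in U87 Si306 + 10 Gy and HERC6 no longer was, against 0.315% of all genes. With that mean 0 members reached 0.5 between the proton doses, and HERC6 and MX2 no longer did between the Si306 ratios. With a curve on probe GC content subtracted, OASL fell just short of a DEG in U87 Si306 + 2 Gy (log2 0.9956). The replicate numbers do not pair the scans: the correlation of same-numbered scans ran from -0.0762 to 0.0878 over 30 pairs, and 8 of 22 scans correlated best with a scan of their own number. In a fit with every scan as a sample and the replicate number as a block, repeat scans of an array count as replicates. There 10 members were lower in U87 2 Gy, against 31.2% of all genes. Between the proton doses 11 were higher and 11 lower, against 20.3% and 22.6%. That fit moved no other count by over 1.5 times.

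With 1 array left out, the members higher and lower ranged from 14 to 20 and 6 to 7 in U87 2 Gy, from 15 to 20 and 8 to 10 in U87 10 Gy, from 8 to 10 and 26 to 30 in U87 Si306 + 2 Gy, and stood at 12 and from 13 to 19 in U87 Si306 + 10 Gy. They ranged from 2 to 6 and 2 to 7 between the proton doses, where 0 to 1 reached 0.5, and from 19 to 31 and 0 between the Si306 ratios. The lone array of a configuration was then assumed to vary like the others. The share of all genes called changed in these fits as well, so the ranges are not particular to the members. Signal over background limits OAS1 and RSAD2. The choice of scaling, the absent dye swap, the slide shared with the compound and the 2 arrays per configuration limit all members.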
